A study of Saccharomyces cerevisiae with 4 samples.

Results

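What budding yeast RNA looks like after the termination factor Nab3 has been inactivated was read from a single pair of arrays. One array held RNA of the strain 1099 nab3-11, which carries nab3-11, a temperature-sensitive allele of NAB3, after 2 hours at 37C. The other held RNA of the strain 1415 wildtype after the same 2 hours at 37C. Both cultures grew in YPD, a rich glucose medium, and the labels do not say whether the strains are isogenic apart from NAB3. The same strains after 2 hours at 25C, taken as the permissive temperature, gave the remaining pair of the series' 4 arrays. That pair serves as a side measurement of what already separated the strains. Whether Nab3 works fully at 25C was not tested. All non-control probe sets with exactly 1 annotated gene were taken, 6504 of 9335, and they gave values for 5656 genes.

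Nab3 and its partner Nrd1 bind short sequence elements in RNA as it leaves RNA polymerase II, and with the helicase Sen1 they end transcription a short way downstream of the start site. This pathway forms the ends of most independently transcribed small nucleolar RNAs (snoRNAs), the guides and processing factors of ribosomal RNA, hands the products to the nuclear exosome for trimming or decay, and removes unstable antisense and intergenic transcripts. It also limits a few messenger RNAs through early termination, among them that of NRD1 itself. In its absence RNA polymerase II is known to read on into whatever lies downstream, so genes next to snoRNA genes and the orientation of neighbouring genes are described below along with gene function.

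With Nab3 inactivated, many snoRNAs, NRD1 and several genes lying behind snoRNA genes had much higher signals than in wild type at 37C. So did 2 of 3 measured spliceosomal RNAs. Most tRNA probe sets and genes next to chromosome ends had higher signals, by less. Most genes for ribosome assembly, ribosomal proteins, tRNA synthetases and daughter-cell separation had lower signals, few of them past 2-fold. Of 4769 measured genes, 227 were at least 2-fold higher in nab3-11 (4.76%) and 188 at least 2-fold lower (3.94%), and the median log2 difference over all measured genes was -0.06. Counts in the lists below are read beside these shares, and in a short list 1 gene moves the share much. A gene was measured when at least 1 of its 2 signals exceeded a floor of 21.8 signal units, and a signal below the floor was raised to it, so that a fold against it is a lower bound and is written "at least". There is 1 array per strain and temperature. No difference below therefore carries an error, a test or a p-value, the spread between cultures is unknown, and the number of arrays limits the precision.

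A conflict among the labels bears on every value of the wild type. Each wild type array carries a description that speaks of nab3-11 at 25C. Its title and strain entry name a wild type strain instead, and the title, the source entry and the temperature entry of the one used here name 37C. The titles were followed. The control probe set for URA3, the gene for orotidine-phosphate decarboxylase, read 74.5 in nab3-11 and 165 in wild type at 37C, and 76.2 in nab3-11 and 168 in wild type at 25C. That control separated the arrays by strain as the titles do. The probe set of the URA3 gene itself did so less clearly, with 48.2 in nab3-11 and 97.9 in wild type at 37C but 81.6 and 96.6 at 25C. The chaperone gene HSP12 had signals of 2861 and 2751 on the nab3-11 and wild type arrays titled 37C, against 98.4 and 43.5 on those titled 25C, and SSA4, an inducible Hsp70 gene, 401 and 216 against 32.0 and 31.9. These heat-inducible genes separated the arrays by temperature as the titles do. With the wild type array at 25C in place of the one at 37C, which then adds the effect of temperature, 801 genes were higher and 224 lower in nab3-11 at 37C. Of the 227 higher and 188 lower genes, 191 and 74 were called the same way in that setting.

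The higher genes changed by more than the lower ones. Among the 227 higher genes, the median log2 difference was 1.32, 44 reached 4-fold and 43 gave a bound, since wild type lay below the floor. Among the 188 lower genes, the median size was 1.21 on the log2 scale, 8 reached 4-fold and 35 gave a bound, since nab3-11 lay below the floor. The nab3-11 array at 37C had the highest of the 4 signals for 217 of the 227 higher genes, and the lowest for 148 of the 188 lower genes. For the lower genes the wild type array at 37C was nearly as often the extreme one, with the highest of the 4 signals for 138 of them, against the lowest for 63 of the higher genes. Among protein-coding genes alone, 164 of 4641 were higher (3.53%) and 188 were lower (4.05%), so all 63 called genes of other types were higher. The ACT1 control probe sets gave a ratio of 3' to 5' signal of 1.79 in nab3-11 against 1.56 in wild type at 37C, those of SRB4 gave 5.04 against 2.99 and those of SPT15 3.38 against 4.44. Such ratios rise when RNA or its amplified copy is shorter, and their part in the differences was not tested.

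**Figure D1:**
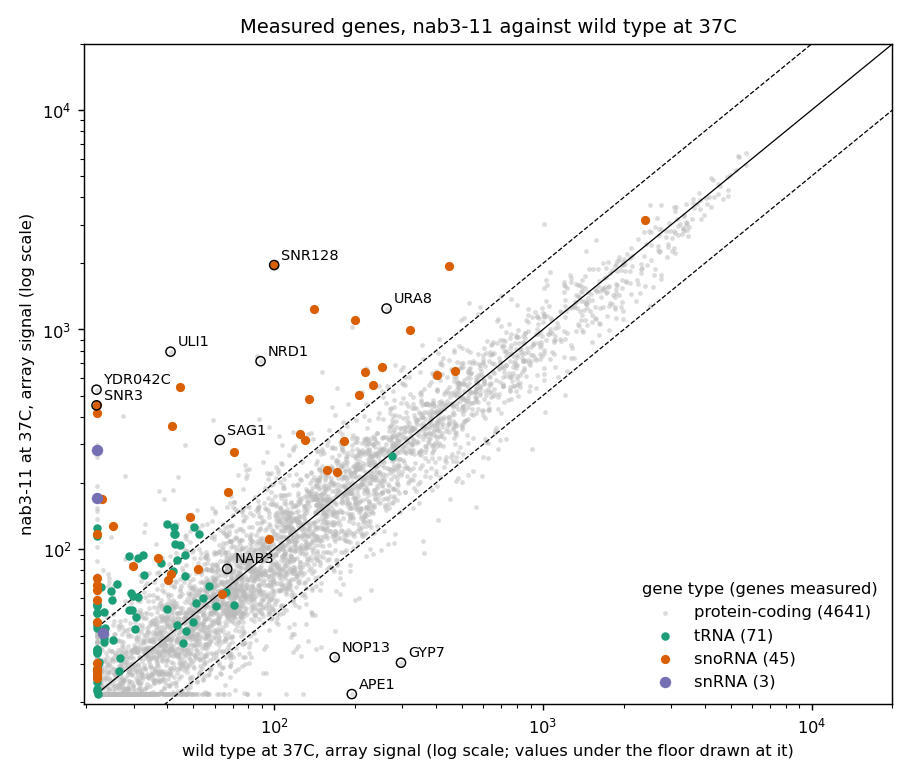
Array signal of each measured gene in nab3-11 at 37C (vertical axis) against wild type at 37C (horizontal axis), both on log scales in arbitrary signal units. Each point is 1 gene, coloured by gene type. Values under the floor of 21.8 are drawn at it, the solid line marks equal signal and the dashed lines 2-fold differences. snoRNAs lie above the line of equal signal in 44 of 45 cases, and circled points are genes named in the text.

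The transcript of the mutated gene itself hardly differed. NAB3 had a signal of 81.1 in nab3-11 and 66.8 in wild type at 37C, with 72.3 and 66.4 at 25C. As the allele is not a deletion, this level does not check the strains. NRD1, whose protein pairs with Nab3 and limits its own messenger RNA through early termination, had 717 in nab3-11 against 88.9 in wild type at 37C, an 8.06-fold difference, and 292 against 126 at 25C. The remaining members of the termination machinery were not called: the log2 difference was 0.07 for SEN1, 0.31 for the phosphatase gene SSU72, -0.16 for the phosphatase gene GLC7 and -0.16 for the cleavage factor gene PCF11. Thus NRD1 alone of the 6 genes of the complex and its close partners was called.

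Genes whose expression is known to be limited by Nrd1-Nab3 termination or by start site choice at such sites were listed separately, and 3 of 8 were higher and none lower, with a median log2 difference of 0.56. Beside NRD1 these were URA8, a CTP synthase gene, with signals of 1246 in nab3-11 against 262 in wild type, and IMD2, an IMP dehydrogenase gene, with 1173 against 572. URA8 already differed at 25C, with 583 in nab3-11 against 161 in wild type. IMD2 did not, with 1375 against 1235, its probe set can bind related genes, and with the wild type array at 25C as the other array its log2 difference was -0.07. GSC2, a glucan synthase gene, had a log2 difference of 0.34 at 37C and of 2.01 at 25C. Its signal was 898 in nab3-11 and 708 in wild type at 37C, and 372 and 92.2 at 25C. The nucleotide synthesis genes ADE12 and URA2 and the RNA-binding protein gene HRP1 had log2 differences of 0.17, -0.32 and 0.49. IMD3, another IMP dehydrogenase gene, had 0.62, and its probe set too can bind related genes. Within the list, NRD1 and URA8 were thus called at both temperatures, IMD2 at 37C alone and GSC2 at 25C alone.

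snoRNAs formed the largest class with most of its measured members called. Of 57 snoRNA genes on the array, 45 were measured, 29 of them were at least 2-fold higher in nab3-11 at 37C and none was lower, with a median log2 difference of 1.42. Because a gene below the floor in wild type entered only when nab3-11 exceeded it, the count over measured genes is read beside the 12 unmeasured ones. All 12 had signals below the floor in both strains. At 25C, 5 of 35 measured snoRNAs were higher and none lower, with a median of 0.27. Both chemical families took part: 17 of 31 measured box C/D snoRNAs, which guide 2'-O-methylation, were higher with a median of 1.28, and 12 of 14 box H/ACA snoRNAs, which guide pseudouridylation, with a median of 1.54.

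The snoRNAs with the largest differences ranged in wild type signal from below the floor to well above it. SNR3, an H/ACA RNA, had signals of 451 in nab3-11 and 8.505 in wild type at 37C, with 41.7 and 21.2 at 25C. SNR128, the U14 RNA that is needed for 18S rRNA processing, had 1966 in nab3-11 and 99.96 in wild type at 37C, and 117 and 107 at 25C. SNR56 had 417 and 14.5 at 37C, and 39.2 and 20.9 at 25C. In each of these the nab3-11 array at 37C stood far above the other 3 arrays, by 19.7-fold over wild type for SNR128 and at least 20.7-fold and 19.1-fold for SNR3 and SNR56. SNR9 had 546 against 44.4, SNR45, a guide of rRNA acetylation, 362 against 41.5, and SNR5 1099.7 against 200.3 at 37C. SNR71 had 1239.7 against 141 at 37C and was also higher at 25C, with 209 against 78.6. At the other end, SNR67 was the brightest snoRNA in wild type at 2408 and had 3145 in nab3-11, SNR11 had 62.6 against 64.1, and SNR17A, a copy of the U3 RNA, had 26.6 against 13.5. SNR11 was the only measured snoRNA with a log2 difference below 0.

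snoRNA genes of different organisation differed in the size of the change. snoRNAs transcribed from genes of their own had a median log2 difference of 1.61, with 22 of 28 called. Those cut from precursors that hold several snoRNAs had a median of 0.62, with 5 of 13 called, and those lying within introns of protein-coding genes a median of 1.16, with 2 of 4 called. The shared precursors were not alike. SNR41, SNR70 and SNR51 lie in 1 precursor and had log2 differences of 1.54, 1.63 and 1.55. In the cluster that holds SNR72 to SNR78, SNR73 had 1.28, SNR76 0.78, SNR77 0.62, SNR72 0.54 and SNR75 0.46. SNR74, below the floor in wild type, had at least 0.36, and SNR78 lay below the floor in both strains. SNR128, the shared-precursor RNA with the largest difference, is cut from a precursor with SNR190, whose own probe set lay below the floor in both strains. The median wild type signal at 37C was 181 for shared-precursor snoRNAs and 31.0 for those with their own transcript, so the groups differ in brightness as well as in organisation, and their shares were not tested against each other.

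The intronic snoRNAs already differed between the strains at 25C. SNR54, within an intron of IMD4, had signals of 83.5 in nab3-11 and 29.7 in wild type at 37C, with 75.3 and 13.8 at 25C. SNR44, within an intron of RPS22B, had 673 and 251 at 37C, and 788 and 442 at 25C. SNR38 and SNR39, within introns of TEF4 and RPL7A, had log2 differences of 0.85 and 0.89 at 37C and of 1.03 and 1.06 at 25C. Their median was thus 1.16 at 37C and 1.04 at 25C, whereas the median of snoRNAs with their own transcript was 1.61 at 37C and 0.35 at 25C.

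**Figure D2:**
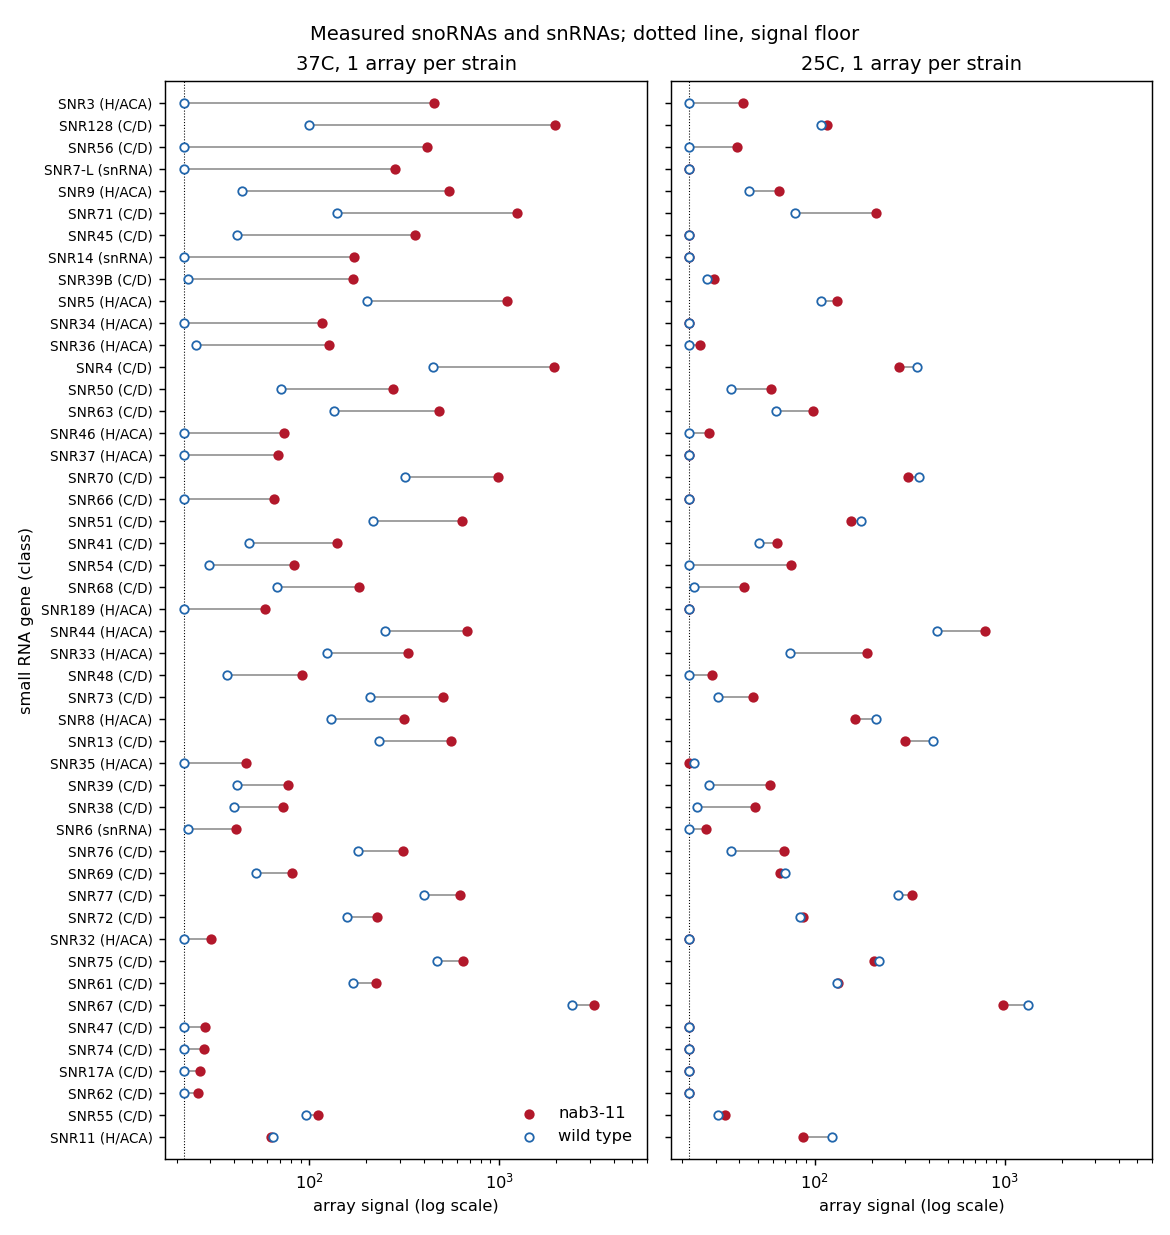
Array signal (log scale, arbitrary units) of the 45 snoRNAs and 3 snRNAs measured at 37C, in nab3-11 (filled red) and wild type (open blue), at 37C on the left and at 25C on the right. Rows are ordered by the log2 difference at 37C, values under the floor (dotted line) are drawn at it, and grey lines join the strains. The nab3-11 points lie to the right of wild type for 47 of the 48 RNAs at 37C, and SNR11 is the exception.

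Spliceosomal RNAs went the same way. SNR7-L, the long form of the U5 RNA, had 282 in nab3-11 and 20.4 in wild type at 37C, and SNR14, the U4 RNA, had 171 and 11.5, at least 12.9-fold and 7.86-fold higher. Both lay below the floor in both strains at 25C. SNR6, the U6 RNA made by RNA polymerase III, had 41.3 and 23.1, which is not a called difference. SNR19, the U1 RNA, lay below the floor on all 4 arrays at 18.3 and 8.91 in nab3-11 and 11.5 and 11.6 in wild type at 37C and 25C, so 2 of 3 measured snRNAs were called.

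Labelled RNA was primed with oligo(dT), which favours RNA with a poly(A) tail, so the signals of small RNAs on these arrays follow RNA that could be primed and not total snoRNA. Other normally untailed RNAs were higher too. Of 91 tRNA genes on the array, 71 were measured at 37C, and 51 had both signals above the floor. A tRNA gene below the floor in wild type was measured only when nab3-11 exceeded it, so the counts describe the measured ones. Of these, 30 were higher and none lower at 37C, with a median log2 difference of 0.83. At 25C the median was -0.14, and 5 of 64 were higher and 4 lower. Of the 71, 62 were measured by probe sets that share sequence with related genes, so single tRNA genes cannot be told apart. SUF1 had 125 in nab3-11 and 5.10 in wild type at 37C, and SUF6 115 and 10.6. Both are glycine tRNA genes, and both lay below the floor in wild type, so their differences are bounds. A control probe set for 25S rRNA had 647 in nab3-11 against 100.5 in wild type at 37C, a 6.44-fold difference, and 126 against 102 at 25C. A further probe set for 25S rRNA had 73.0 against 21.4 and one for 18S rRNA 32.1 against 17.9 at 37C, and the other 7 of 10 rRNA control probe sets lay below the floor in both strains. The tRNA and rRNA signals thus moved with those of the snoRNAs, and their part in the snoRNA result was not tested.

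Genes that follow an snoRNA or snRNA gene on the same strand within 1000 bp held the most extreme protein-coding difference of all. Of 28 such genes, 26 were measured, 5 were higher (19.2%) and 2 lower (7.69%), with a median log2 difference of 0.16. Over all measured protein-coding genes the shares were 3.53% and 4.05%. YDR042C, an uncharacterised gene behind SNR47, had 532 in nab3-11 and 8.60 in wild type at 37C, and 105 and 6.31 at 25C. It was at least 24.4-fold higher at 37C, and wild type lay below the floor at both temperatures. FLX1, a gene for a mitochondrial FAD carrier behind SNR68, had 387 and 58.9 at 37C, and 62.6 and 30.2 at 25C. RGT1, a glucose-responsive transcription factor gene behind SNR69, had 641 and 151 at 37C, and 94.9 and 46.3 at 25C. These 3 genes were higher in nab3-11 at both temperatures. HEM4, for the uroporphyrinogen III synthase of heme synthesis, behind SNR5, had 153 and 58.8 at 37C, and SEN2, for a subunit of the tRNA splicing endonuclease, behind SNR79, had 288 and 118. Both had log2 differences of -0.47 at 25C and were thus called at 37C alone. SFT1, a Golgi SNARE gene behind SNR87, was the reverse, with 1.74 at 25C and 0.56 at 37C.

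A large difference of a small RNA was not always matched by the gene behind it, nor the reverse. SNR47 itself was faint, at 28.3 in nab3-11 and 5.10 in wild type at 37C, and SNR69 had 81.1 and 52.2. TMA20, a ribosome-associated protein gene behind the U4 gene SNR14, was lower, with 209.98 against 484, and ASN1, an asparagine synthetase gene behind SNR45, had 629 against 1007. PMD1, the other lower gene, lies behind SNR52 and runs toward SNR4 on its other side. It had 62.4 in nab3-11 against 176 in wild type. Other arrangements were read in the same way. Of 25 measured genes that converge on an snoRNA or snRNA gene, none was higher and 4 were lower (16%), with a median of -0.47. Over all measured protein-coding genes 3.53% were higher and 4.05% lower. The 4 lower ones were PMD1, the carrier gene ODC2, CUE5 and STE23. STE23 had 32.1 against 76.3 at 37C but 99.4 against 48.7 at 25C. Of 23 measured genes lying before an snoRNA or snRNA gene on the same strand, 1 was higher (4.35%) and 4 were lower (17.4%). Their median was -0.29, and the higher one, YHR140W, had 114 against 46.4. Of 20 divergent ones 1 was higher (5%), YOL097W-A with 222 against 97.4, and 1 lower (5%), CUE5. PMD1 and CUE5 each count in more than 1 of these arrangements. Genes behind tRNA genes on the same strand stood near the background, with 5 of 107 higher and 4 lower.

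**Figure D3:**
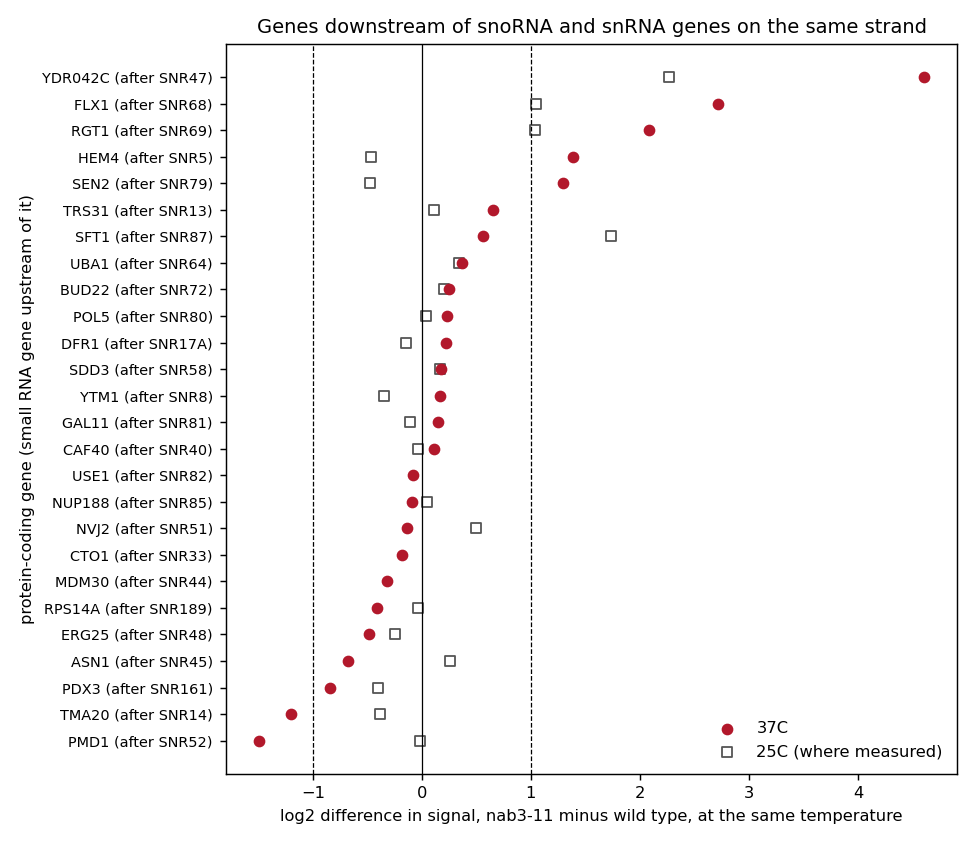
Log2 difference in signal, nab3-11 minus wild type, of the 26 measured protein-coding genes that follow an snoRNA or snRNA gene on the same strand within 1000 bp, at 37C (red circles) and at 25C (open squares, where measured). The dashed lines mark 2-fold differences. YDR042C, FLX1 and RGT1 lie beyond 2-fold at both temperatures, HEM4 and SEN2 at 37C alone and SFT1 at 25C alone.

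The strand of the next protein-coding gene downstream also divided the lower genes. A neighbour on either side was counted only where the adjacent annotated gene was protein-coding and lay within 1000 bp without overlap, and other genes were left out. Where the next gene downstream lay on the same strand, 119 of 1883 measured genes were lower in nab3-11 at 37C (6.32%) and 62 were higher (3.29%). Where it lay on the opposite strand, so that the pair converges, 46 of 2264 were lower (2.03%) and 65 were higher (2.87%). At 25C the lower genes numbered 12 and 6 in these groups. When genes were split by mean signal into 3 groups of equal size, the faintest group had 8.63% lower with a same-strand neighbour and 3.05% with an opposite-strand one, the middle group 7.57% and 1.96%, and the brightest group 2.83% and 1.08%. The share was thus larger with a same-strand neighbour in each group. It was also larger under all 9 alternative settings that kept the wild type array at 37C, from 1.22% and 0.133% at 3-fold to 7.89% and 2.52% with the lower floor, and was 6.64% and 3.49% with the wild type array at 25C as the other array. The neighbour on the upstream side made less difference, with 4.20% lower where it lay on the same strand and 3.57% where it lay on the opposite one. Of the 5 lowest genes, GYP7, NOP13, OTU1 and TCO89 have a same-strand gene next to them downstream, and APE1 an opposite-strand one.

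Genes near chromosome ends were called higher more often than the background. Places were counted over annotated genes of all types, and the protein-coding ones were kept. Among those in the outermost 5 places at each end, 47 were measured, 15 were higher (31.9%) and 1 was lower. Their median log2 difference was 0.47, against -0.07 at 25C, where 1 of the measured ones was higher. The genes in places 6 to 10 from an end had 6 of 94 higher (6.38%), those in places 11 to 20 had 8 of 239 (3.35%), and genes farther in had 135 of 4258 (3.17%). The share was thus highest in the outermost 5 and near the background from place 11 inward. Many of them belong to families that share sequence, and with probe sets unique to 1 gene 6 of 33 outermost genes were higher. The seripauperin (PAU) genes, cell wall mannoprotein genes known for induction by cold and lack of oxygen, had 9 of 10 measured members higher, with a median of 1.298 at 37C and -0.07 at 25C. PAU13 had 477 in nab3-11 and 136 in wild type at 37C, and PAU4 443 and 164. All PAU probe sets are of the kind that binds several family members, so these counts are not independent. Of 6 measured COS genes, another family of chromosome ends, 1 was higher, COS10, with 334 against 134.

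**Figure D4:**
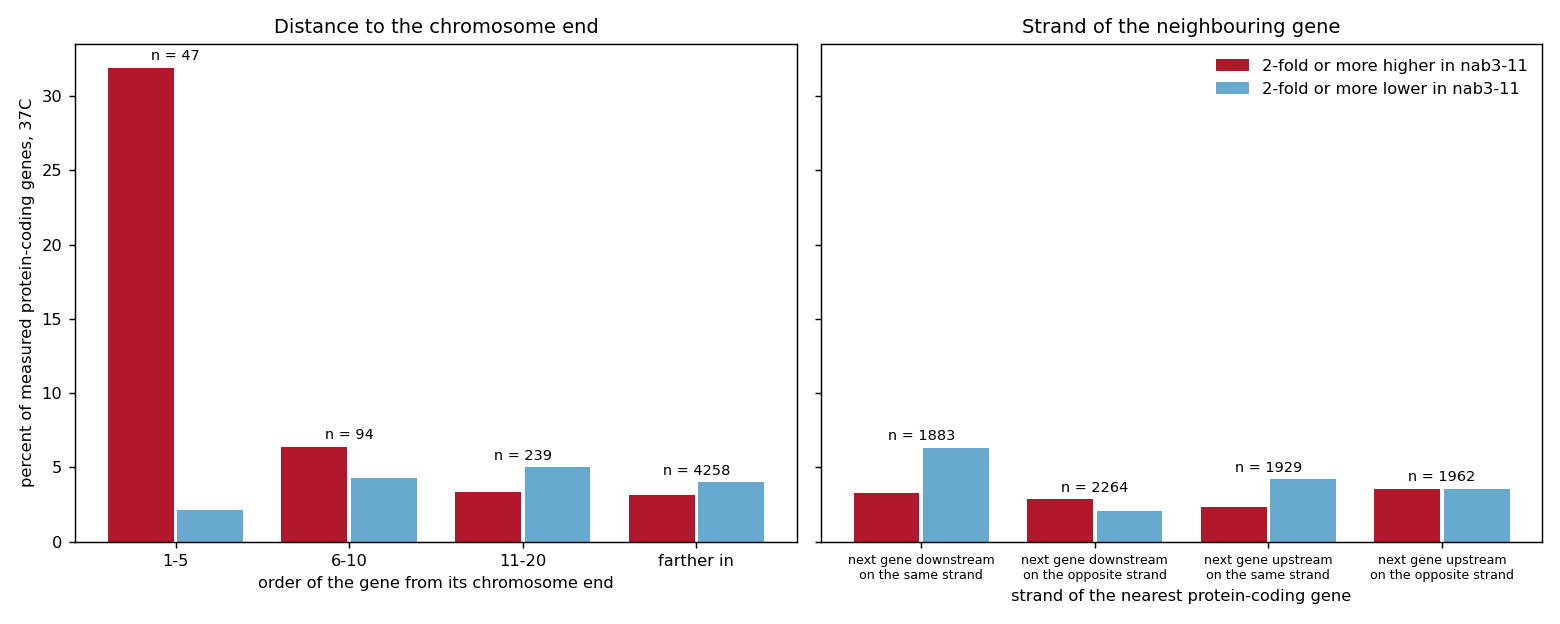
Percent of measured protein-coding genes at least 2-fold higher (red) or lower (blue) in nab3-11 than in wild type at 37C, by the order of the gene counted from its chromosome end (left) and by the strand of the adjacent gene on each side (right). On the right, only adjacent genes that are protein-coding and lie within 1000 bp without overlap count. The number of measured genes stands above each pair of bars. The outermost 5 genes reach 31.9% higher, and genes with a same-strand gene downstream reach 6.32% lower.

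Reading frames that were never given a gene name were called higher more often than named ones. Of 57 measured frames with a suffixed systematic name, such as YKL183C-A, and no gene name, 15 were higher (26.3%) and 1 was lower, and of 264 with a plain systematic name and no gene name 22 were higher (8.33%) and 7 lower. Among genes with a plain systematic name and a gene name, 125 of 4232 were higher (2.95%) and 178 lower. The named frames thus made up most of the lower genes, as they did of all measured genes. YKL183C-A had 296 in nab3-11 and 7.20 in wild type at 37C, and 19.9 and 10.9 at 25C. YHR214C-D had 402 and 27.3 at 37C, and YJL136W-A 153 and 11.4. YLL066W-B, near a chromosome end, had 1029.6 and 195 at 37C and was also higher at 25C, with 287 and 89.7. The arrays do not say whether such a signal comes from the frame itself or from a longer transcript that crosses it, and YJL047C-A, with 136 against 9.21, overlaps the snoRNA gene SNR60.

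Probe sets without an annotated gene were read separately. Of 2443 such probe sets 935 were measured, and the rest lay below the floor in both strains. Of the 935, 190 were higher in nab3-11 at 37C (20.3%) and 13 were lower (1.39%), with 23 higher and 8 lower at 25C. A probe set below the floor in wild type was measured only when nab3-11 exceeded the floor, so these shares are a description of the measured ones. The same holds for the frames without a gene name, with 57 of 81 on the array measured among the suffixed ones and 264 of 363 among the plain ones, and for the outermost genes, with 47 of 64.

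**Figure D5:**
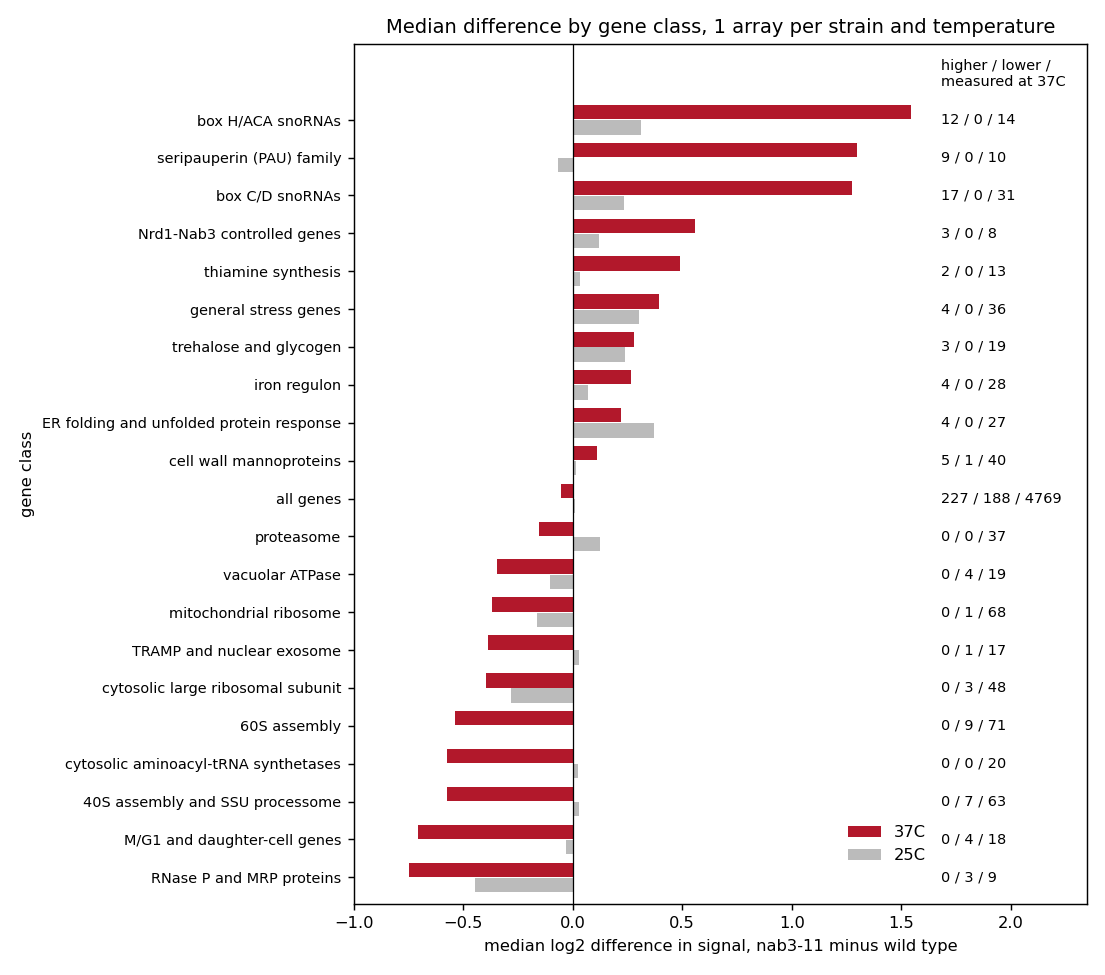
Median log2 difference in signal, nab3-11 minus wild type, of 20 gene classes and of all measured genes, at 37C (red) and at 25C (grey). The numbers at the right give the genes at least 2-fold higher, at least 2-fold lower and measured at 37C. The 40S and 60S assembly classes lie at -0.58 and -0.54 at 37C and at 0.03 and 0.01 at 25C.

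Ribosome assembly genes lay on the lower side almost as a whole. Of 63 measured genes for the small-subunit processome and 40S assembly, 61 had log2 differences below 0, 7 were at least 2-fold lower (11.1%) and none was higher. Their median was -0.58 at 37C and 0.03 at 25C. Of 71 genes for 60S assembly, 65 lay below 0, 9 were lower (12.7%) and none higher. Their median was -0.54 at 37C and 0.01 at 25C. Over all measured genes 3.94% were lower at 37C. NOP13, a nucleolar RNA-binding protein gene, had 32.1 in nab3-11 against 168 in wild type at 37C, with 159.9 and 178 at 25C. NOP15, needed for early 60S particles, had 59.7 against 207, and NOB1, the nuclease that completes 18S rRNA, 41.1 against 119. For these 3 genes the nab3-11 array at 37C was the lowest of the 4.

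The protein genes of the ribosome followed less strongly. Of 48 measured genes listed for the large subunit, 43 lay below 0 and 3 were lower (6.25%), namely RPL9A, RPL9B and RPP1. RPP1 is a gene for an RNase P and RNase MRP protein, not a ribosomal one, and is counted in that list below as well. Of 33 genes of the small subunit 30 lay below 0 and 1 was lower (3.03%, against 3.94% of all genes). The medians of the large-subunit and small-subunit lists were -0.40 and -0.41 at 37C and -0.28 and -0.35 at 25C. They were thus below 0 at both temperatures. RPL9A and RPL9B, a pair of copies of 1 ribosomal protein gene read by incomplete probe sets, had 169 against 450.4 and 312 against 695. Of 40 measured genes of translation initiation and elongation, the initiation factor gene TIF4631 was lower with 33.3 against 74.2, and ANB1, an eIF5A gene known for expression without oxygen, was higher with 544 against 171. The cytosolic aminoacyl-tRNA synthetases, which charge tRNAs, had no called member, yet 19 of 20 lay below 0, with a median of -0.57 at 37C and 0.03 at 25C. Of 68 measured mitochondrial ribosomal protein genes, 58 lay below 0 and 1 was lower (1.47%), with a median of -0.37. Each of these medians lies below that of all genes, -0.06.

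Several lists of RNA processing genes had medians below that of all genes, and their shares are set beside 3.94% lower of all genes. The protein genes of RNase P and RNase MRP, which cut tRNA and rRNA precursors, had 3 of 9 lower (33.3%) and none higher. Their median was -0.75 at 37C and -0.45 at 25C, and SNM1 had 28.5 against 73.3 at 37C. Genes of the TRAMP complex and the nuclear exosome, which receive transcripts ended by Nrd1 and Nab3, had 15 of 17 below 0 and a median of -0.39. Their single called member (5.88%) was RRP6, the nuclear exosome nuclease, with 28.0 in nab3-11 against 57.5 in wild type at 37C, and 72.8 against 63.1 at 25C. RNT1, the RNase III that cuts snoRNA and rRNA precursors, was among the lowest genes, with 38.2 against 134 at 37C and 62.5 against 83.1 at 25C. Splicing factor genes had 2 of 53 lower (3.77%, near the 3.94% of all genes) and a median of -0.17. RNA polymerase III genes had 2 of 21 lower (9.52%) and a median of -0.31. TFIID and SAGA genes had 2 of 26 lower (7.69%), TAF10 with 35.8 against 149 among them. None of these lists had a higher member. Pol II elongation factor genes had 2 of 22 lower (9.09%), DST1, the gene for TFIIS, and LEO1, a Paf1 complex gene. Cleavage and polyadenylation factor genes, snoRNP protein genes and cytoplasmic decay genes had no called member among 18, 15 and 27 measured, and the median of the cleavage and polyadenylation list was 0.04, with 11 members above 0 and 7 below.

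Daughter-cell and cell-separation genes lay on the lower side. Of 18 measured M/G1 genes, 16 lay below 0, 4 were lower (22.2%) and none was higher. Their median was -0.71 at 37C and -0.03 at 25C. DSE4, a glucanase gene that helps part daughter from mother, had 95.9 in nab3-11 against 362 in wild type at 37C, and ASH1, the daughter-specific repressor of mating type switching, 215 against 591. SUN4 and EGT2, genes of cell separation, had 263 against 601 and 306 against 616. G2/M genes had no called member of 18, with 15 below 0 and a median of -0.42. Of 27 cyclin and Cdk regulator genes 1 was lower (3.7%) and 1 higher (3.7%), with a median of -0.03. The lower one, FAR1, a cyclin-dependent kinase inhibitor gene of the pheromone pathway, had 24.0 against 65.4 at 37C and 159 against 154 at 25C. The higher one, YOX1, had a log2 difference of 1.24. Pheromone response genes, FAR1 among them, had 2 of 25 lower (8%) and a median of 0.08. Of 40 DNA replication genes 1 was lower (2.5%) and none higher, with a median of -0.14. It was MCM3, of the replicative helicase, with 27.8 against 71.5. In bulk RNA, fewer cells in a phase and less RNA per cell cannot be told apart.

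Besides NOP13, the lowest single genes belonged to different functions. GYP7, the activator of the vacuolar Rab GTPase Ypt7, had 30.3 in nab3-11 against 296 in wild type at 37C, 9.78-fold lower, and 113 against 83.6 at 25C. APE1, a vacuolar aminopeptidase gene, had 14.4 against 194 at 37C and 26.2 against 73.0 at 25C, and was lower at both temperatures, by at least 8.92-fold at 37C. OTU1, a deubiquitylating enzyme gene of the Cdc48 pathway, had 21.9 against 128, and TCO89, a TORC1 subunit gene, 20.6 against 111, at least 5.09-fold lower. For GYP7, APE1, OTU1 and TCO89 the wild type array at 37C was the highest of the 4 and the nab3-11 array at 37C the lowest. Among the other lowest genes, BNA6, of NAD synthesis, had 156 against 564, LSM12, an RNA-binding protein gene, 65.3 against 228, and the allantoin permease gene DAL4 33.8 against 118. The DAL4 signal was low at 25C in both strains, at 11.2 in nab3-11 and 18.5 in wild type. Genes of the vacuolar ATPase, which acidifies the vacuole, had 4 of 19 lower (21.1%) and none higher. Their median was -0.34 at 37C and -0.10 at 25C. VMA8 had 36.0 against 123, VMA13 135 against 407, VMA7 227 against 548 and VMA5 194 against 405. Of 38 measured stress and growth transcription factor genes, 5 were lower (13.2%) and none higher. Among the lower ones were HMS2 with 35.0 against 143 and SOK2, a regulator of filamentous growth, with 22.1 against 77.4. HAP1, the heme-responsive activator gene, was called lower from its brightest probe set, but its probe set unique to the gene gave a log2 difference of 0.52.

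Stress and folding genes lay on the higher side without large numbers of calls. Of 36 general stress genes, 30 lay above 0, 4 were higher (11.1%) and none lower. Their median was 0.39 at 37C and 0.30 at 25C. GRE1, a hydrophilin gene, had 262 in nab3-11 against 13.6 in wild type at 37C, at least 12.02-fold higher, and DDR2, a multi-stress gene, 3024 against 1008. Of 27 genes of folding in the endoplasmic reticulum and of the unfolded protein response, 22 lay above 0 and 4 were higher (14.8%). Their median was 0.22 at 37C and 0.37 at 25C. ULI1, a gene induced by the unfolded protein response, had 792 against 41.1 at 37C, 19.3-fold higher, and 60.3 against 18.7 at 25C. INO1, for the inositol phosphate synthase, had 149 against 21.9, SIL1, for a nucleotide exchange factor of the ER Hsp70, 408 against 168, and DER1, for a component of ER-associated degradation, 229 against 103. The medians of both lists were thus above 0 at 25C as well. Of 34 antioxidant genes, the sulfiredoxin gene SRX1 was the one called, higher with 278 against 93.9. The cytosolic heat shock lists were split. Hsp70, Hsp110 and Hsp40 chaperone genes had no called member of 16 and a median of -0.12, and Hsp90 genes and co-chaperones had 1 of 14 lower, CNS1, and a median of 0.02. Small heat shock protein and disaggregase genes had 1 of 9 higher, BTN2 with 108 against 48.7, none lower and a median of 0.26. BTN2 had 179 in nab3-11 and 158 in wild type at 25C, and with the wild type array at 25C as the other array its log2 difference was -0.56.

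Storage carbohydrate, transport and cell wall genes included higher members too, and their shares are set beside 4.76% higher and 3.94% lower of all genes. Of 19 trehalose and glycogen genes 3 were higher (15.8%), GSY2, GAC1 and SGA1, and none lower. The glycogen synthase gene GSY2 had 209.9 against 102 and the phosphatase regulator gene GAC1 151 against 51.6. Both also count among the 4 higher general stress genes. The glucoamylase gene SGA1 had 315 against 133. Of 40 cell wall mannoprotein genes 5 were higher (12.5%) and 1 lower (2.5%). ZPS1 had 755 against 85.9, TIR4 359 against 95.5 and the flocculin gene FLO1 87.7 against 0.4, at least 4.02-fold higher. FLO1 was near 0 on the other arrays, at 0.601 in nab3-11 and 0.701 in wild type at 25C, and its probe set is an incomplete one. Of 29 mitochondrial carrier genes 5 were higher (17.2%) and 1 lower (3.45%). FLX1 is described above, and MRS3, an iron carrier gene, had 184 against 37.1 at 37C, while CRC1, the carnitine carrier gene, had 89.7 against 27.7. The hexose transporter gene HXT5 had 212 against 44.0 at 37C and 22.9 against 26.04 at 25C, and was the single called gene beside RGT1 among 16 of glucose transport and sensing.

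Nutrient pathways were split, and their shares are set beside 4.76% higher and 3.94% lower of all genes. Iron regulon genes had 4 of 28 higher (14.3%) and none lower: FRE4, HMX1, ARN1 and TIS11, with log2 differences of 1.49, 1.23, 1.15 and 1.08. The reductase gene FRE4 reversed to -0.99 with the wild type array at 25C as the other array. Thiamine synthesis genes had 2 of 13 higher (15.4%), THI4 with 119 against 32.8 and THI20 with 329 against 104, and a median of 0.49. THI4 and THI20 both follow a tRNA gene on the same strand. Of 29 genes of sulfate assimilation and methionine, 3.45% were higher and 10.3% lower. SUL2, a sulfate permease gene, was higher with 114 against 24.6. The S-adenosylmethionine permease gene SAM3, the methionine synthase gene MET6 and the cystathionine synthase gene CYS4 were lower, with 105 against 265, 201 against 501 and 419 against 1018. Of 66 other amino acid synthesis genes 3 were higher (4.55%) and 4 lower (6.06%), near the shares of all genes. The lower ones were HIS1, HIS2, HIS7 and SER33 at log2 differences of -1.26, -1.37, -1.02 and -1.02. Phosphate regulon genes had 3 of 25 lower (12%), among them the acid phosphatase gene PHO5 with 501 against 1209.6, and 1 higher (4%). The higher one was the glycerophosphoinositol transporter gene GIT1, with 61.3 against 25.0 at 37C and 111 against 30.7 at 25C. Glycolysis and fermentation had 3 of 30 higher (10%) and 1 lower (3.33%). ADH2, the alcohol dehydrogenase of ethanol use, had 667 against 219.8, and PDC5, a pyruvate decarboxylase gene, 520.1 against 213. The aldehyde dehydrogenase gene ALD6 had 317 against 729.7.

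Meiotic genes were largely silent, with 13 of 55 measured. Of the 13, 7 had both signals above the floor, 4 were higher (30.8%) and 1 was lower (7.69%). A gene below the floor in wild type was measured only when nab3-11 exceeded it, so these shares describe the measured genes alone. REC104, which acts in meiotic recombination, had 120.2 in nab3-11 against 13.4 in wild type at 37C, and SPS100, a spore wall gene, 62.2 against 10.01. The master regulator gene IME1 had 13.0 against 51.2. GAT4, a GATA-type factor gene of low expression, had 193 against 6.60, at least 8.87-fold higher, and 7.41 against 9.01 at 25C. In REC104, SPS100 and GAT4 the wild type signal lay below the floor, so these are bounds.

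Mating type genes marked both cultures as MATalpha cells. The alpha-factor gene MF(ALPHA)1 had 1271 in nab3-11 and 1306 in wild type at 37C, and the receptor gene STE3 had 124 and 129.8. Of 7 MATa-specific genes, 5 lay below the floor in both strains at 37C, among them MFA1 at 14.998 and 6.40 and the receptor gene STE2 at 11.7 and 5.003. AGA2, ASG7 and STE6 were the others, while the measured BAR1 had 22.4 in nab3-11 and 35.5 in wild type and MFA2 29.3 and 29.6. The alpha-agglutinin gene SAG1 had 314 in nab3-11 and 62.7 in wild type at 37C, and 1509 and 1319 at 25C. It was 5.002-fold higher in nab3-11 at 37C. Its signal was lower at 37C than at 25C in both strains, and with the wild type array at 25C as the other array its log2 difference was -2.07. MF(ALPHA)2 had 70.5 and 46.3 at 37C, and 2197 and 2444 at 25C. Of the genes often used as strain markers, TRP1 was higher with 129 against 56.0 and URA3 lower with 48.2 against 97.9 at 37C. LEU2, HIS3, LYS2, ADE2 and MET17 had log2 differences of 0.52, 0.37, -0.34, 0.10 and 0.34.

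Several systems held no called gene at 37C: none of 37 measured proteasome genes, 46 of the nuclear pore and transport, 31 of autophagy, 28 of ER to Golgi transport and 25 of ergosterol synthesis passed 2-fold. Their medians were -0.15, -0.25, 0.19, 0.08 and -0.05.

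The strains already differed at 25C, by fewer genes. There, 50 of 4285 measured genes were higher in nab3-11 (1.17%) and 23 lower (0.537%), or 0.958% and 0.455% of protein-coding genes. Counting genes measured at both temperatures, 21 were higher at both, which is 11.2% of the 187 higher at 37C and 42% of the 50 higher at 25C. Of the lower genes, 5 were lower at both, 2.78% of the 180 at 37C and 21.7% of the 23 at 25C. The pair of temperatures shares no array. The genes higher at both included NRD1, URA8, YDR042C, FLX1, RGT1, ULI1, SNR71, SNR33 and SNR54. Several tRNA genes were among them as well, all read by probe sets that share sequence with related genes, so they are not independent. NRD1 had log2 differences of 3.01 at 37C and 1.22 at 25C, FLX1 2.72 and 1.05, URA8 2.25 and 1.86 and SNR33 1.42 and 1.35. Those lower at both were APE1, YBR053C, SMN1, RPB11 and GPD2, of which the RNA polymerase II subunit gene RPB11 had log2 differences of -1.07 and -1.03 and the glycerol phosphate dehydrogenase gene GPD2 -1.06 and -1.06 at 37C and 25C. Most of the called genes were thus called at 37C alone, which does not show that the strains differ by temperature, since no test was possible.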

How the data were processed

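Total RNA of 4 yeast cultures was extracted with hot acid phenol, cleaned on RNeasy columns, amplified in 1 round with a T7-oligo(dT) primer and labelled with biotin, per the labels' protocols. The authors deposited 1 intensity per probe set, on a linear scale. The submitters' processing notes name MAS5 and GCOS 1.1.1 as the software. All arrays came with nearly the same mean, so a change in the amount of RNA per cell would not show. Detection calls were not used, and the sources used here do not give a genome build of the array design.

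Each array was rescaled to a 2% trimmed mean of 150. The floor of 21.8 was the 40th percentile of the scaled signals of all probe sets other than controls. Lower values were set to the floor, log2 differences were taken and genes were called at 2-fold. Because of this floor, differences understate low genes. Of several probe sets of a gene the brightest was used. Among 207 genes with several measured ones, their log2 differences spanned a median of 0.405 and a 90th percentile of 0.99. Of 19 called genes among them, 7 had every measured probe set past 2-fold and 1 had probe sets of both signs. Another 2443 probe sets had no annotated gene and 328 had several. All 6504 matched the R64 annotation by gene ID, which served for names, gene types and neighbours only, with the strand taken from the systematic name.

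The 78 gene lists, the annotation classes and the comparison itself were chosen with earlier results of these data known. Lists can share genes, so their counts are not separate. Named genes are NAB3, NRD1 and SEN1; the 15 highest and 15 lowest with both signals above the floor; the 10 largest bounds each way; up to 4 called members of each list in each direction; the members of the termination, controlled-gene, snRNA, marker and mating type lists, some of them by count only; and called genes behind snoRNA genes. Other named genes, such as the fainter snoRNAs, the heat-inducible genes, SFT1, ASN1, SMN1 and GPD2, were chosen after their values were seen. With 1 array per group no test was made. The calling rule was checked on simulated signals with known folds. Alternatives were the values as deposited, a common median, quantile normalization, floors at the 25th or 55th percentile, an added floor, averaging a gene's probe sets, unique probe sets only, a 3-fold threshold and wild type at 25C as the other array. The chromosome-end and orientation counts under these settings were added after seeing the data. Python 3.11.15 with numpy 2.4.6, pandas 2.3.3 and matplotlib 3.10.9 was used.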

Additional observations from a re-analysis of the deposited data

Results flagged for a closer look

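Among genes measured at both temperatures, RGM1 and STE23 were called in opposite directions. RGM1, a zinc finger protein gene, had a log2 difference between nab3-11 and wild type of 1.51 at 37C and -1.04 at 25C. STE23, a metalloprotease gene that acts on the a-factor precursor, had -1.25 at 37C and 1.03 at 25C. These differences between temperatures were not tested, as each rests on 4 single arrays.

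Signals outside the gene counts were also higher in nab3-11 at 37C. The control probe set for 25S rRNA was 6.44-fold higher than in wild type, against 1.23-fold at 25C. Of the probe sets with no annotated gene, 190 were at least 2-fold higher, against 23 at 25C.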

How the results depend on the processing

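No paired analysis was possible because there is 1 array per group. The count of 227 higher genes stayed between 159 and 285 under 8 alternatives; it was 69 at a 3-fold threshold and 801 with wild type at 25C as the other array. The count of 188 lower genes stayed between 178 and 258 under 6 alternatives and was 224 with wild type at 25C; it was 98 with the floor at the 55th percentile, 82 with the floor added and 29 at 3-fold. Higher genes made up 54.7% of calls, and 63.6%, 66.0%, 70.4% and 78.1% with the higher floor, the added floor, 3-fold and wild type at 25C. They were fewer than the lower ones with quantile normalization (49.5%) and unique probe sets only (48.9%). Between 16 and 34 snoRNAs were higher and none lower under every setting. With wild type at 25C, which adds the effect of temperature, the log2 differences of ADH5 (-0.49), BTN2 (-0.56), COX5B (1.57), DAL4 (0.63), FKS3 (0.01), FRE4 (-0.99), IMD2 (-0.07), MRPL11 (0.02), PRM8 (0.47), PRP3 (0.38) and SAG1 (-2.07) changed sign; the cause was not tested. With unique probe sets only, HAP1 changed sign to 0.52. No other called gene chosen by the naming rule changed sign. Among genes not called, MF(ALPHA)2, LEU2 (-0.34), MET17 (-0.34) and GLC7 (0.07) were among those that did with wild type at 25C. The medians of the splicing factor, RNA polymerase III, and TFIID and SAGA lists turned to 0.27, 0.25 and 0.05 in that setting, where the median of all genes was 0.20. Sizes were less stable than signs. With the floor at the 55th percentile, the folds of 69 genes chosen by the naming rule changed by a factor of 1.5 or more, and those of 147 did not. Such changes numbered 20 with the floor at the 25th percentile and 13 with the floor added. With wild type at 25C they numbered 86, beside the called genes that changed sign. The 35 lower bounds among lower genes and 43 among higher ones depend on the floor, and the distance of a signal from it limits their size.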
